A study of Mus musculus with 4 samples.

Results

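Transcripts of 10 genes known for their expression in the choroid plexus, Ttr, Kl, Folr1, Clic6, Kcne2, Aqp1, Otx2, Slc4a5, Prlr and Sostdc1, were examined in RNA-Seq libraries of the mouse hippocampus. The genes were taken by symbol, and all 10 were found among the 22609 symbols counted in each library. The FLOX+GCI group (n = 2 libraries) and the FBN-ARO-KO+GCI group (n = 2 libraries) were both ovariectomized female mice, aged 3 to 5 months, whose ovaries were removed 1 week before surgery. Both groups underwent 20 min of occlusion of the common carotid arteries (global cerebral ischemia, GCI) and 24 h of reperfusion. FBN-ARO-KO mice carry a floxed Cyp19a1, the gene of the estrogen-synthesizing enzyme aromatase, and a Cre driven by the CaMKIIα promoter, which is active in excitatory neurons of the forebrain. FLOX mice carry the floxed gene and serve as controls. Neither the labels nor the methods say whether a library holds 1 animal or a pool, so p-values measure only the spread between these libraries, which may be technical. As both groups were ischemic, the comparison is one of genotype.

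The choroid plexus is a fold of vascular tissue covered by an epithelium that hangs in the brain ventricles and secretes cerebrospinal fluid. The epithelium moves bicarbonate, chloride, sodium and potassium and lets water follow, and it passes thyroid hormone, folate and other nutrients from blood to fluid. The plexus of the lateral ventricle lies against the fimbria of the hippocampus, so a dissected hippocampus can carry some of it, and its transcripts are used to recognize it in brain RNA. Several of the 10 genes are also transcribed elsewhere: Kl in neurons, Prlr in hypothalamic neurons, Aqp1 in some sensory neurons and in endothelium outside the brain. In bulk tissue, fewer cells of a type and less RNA per cell cannot be told apart.

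The counts on genes totaled between 24333396 and 33076795 per library, and 3 counts, the smallest number taken here as detectable, corresponded to between 0.0907 and 0.123 CPM (reads relative to library size). This floor and the intervals given below cover counting error only. The targeted gene Cyp19a1 had 4 reads in FLOX+GCI replicate 1, 1 in replicate 2 and 2 in each FBN-ARO-KO+GCI library, which cannot check the genotype. The labelled tissue was checked with 12 markers of hippocampal neurons, among them Prox1 of dentate granule cells and Fibcd1 of CA1 neurons. All 12 passed the filter on low counts, and their summed level was between 1350 and 1492 CPM. This sum and those that follow are scaled by library composition with the TMM method of edgeR, while the floor is scaled by library total only. Summed levels were between 137.1 and 170.6 CPM for 8 thalamic, between 196.3 and 215.7 CPM for 8 striatal and between 370.1 and 410.7 CPM for 8 cortical markers, many of which the hippocampus also transcribes. The highest thalamic sum was that of FLOX+GCI replicate 2. There Slc17a6 had 64.3 CPM, against 25.2 CPM in FLOX+GCI replicate 1 and 22.3 and 25.3 CPM in FBN-ARO-KO+GCI. The median deviation of the 8 thalamic markers from their own means was -0.06 in log2 in that library.

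Ttr and Kl made up most of the reads of the 10 genes. Below, CPM is likewise scaled by library composition with the TMM method of edgeR. The level of all 10 genes together was 70.6 and 58.9 CPM in FLOX+GCI against 49.3 and 56.9 CPM in FBN-ARO-KO+GCI. Without Ttr, Kl, Prlr and Sostdc1, the 4 genes with the highest CPM, the other 6 summed to 3.31 and 2.11 CPM in FLOX+GCI against 2.17 and 2.87 CPM in FBN-ARO-KO+GCI. These sums are 83, 52, 72 and 84 reads in the 4 libraries. Every gene had at least 1 count in every library, and 5 genes (Folr1, Kcne2, Aqp1, Otx2 and Slc4a5) had no library above 21 counts. As a check of the label, Ttr and Kl were well above the floor in every library, while Kcne2 and Slc4a5, more particular to the epithelium in brain, had between 1 and 11 counts.

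**Figure D1:**
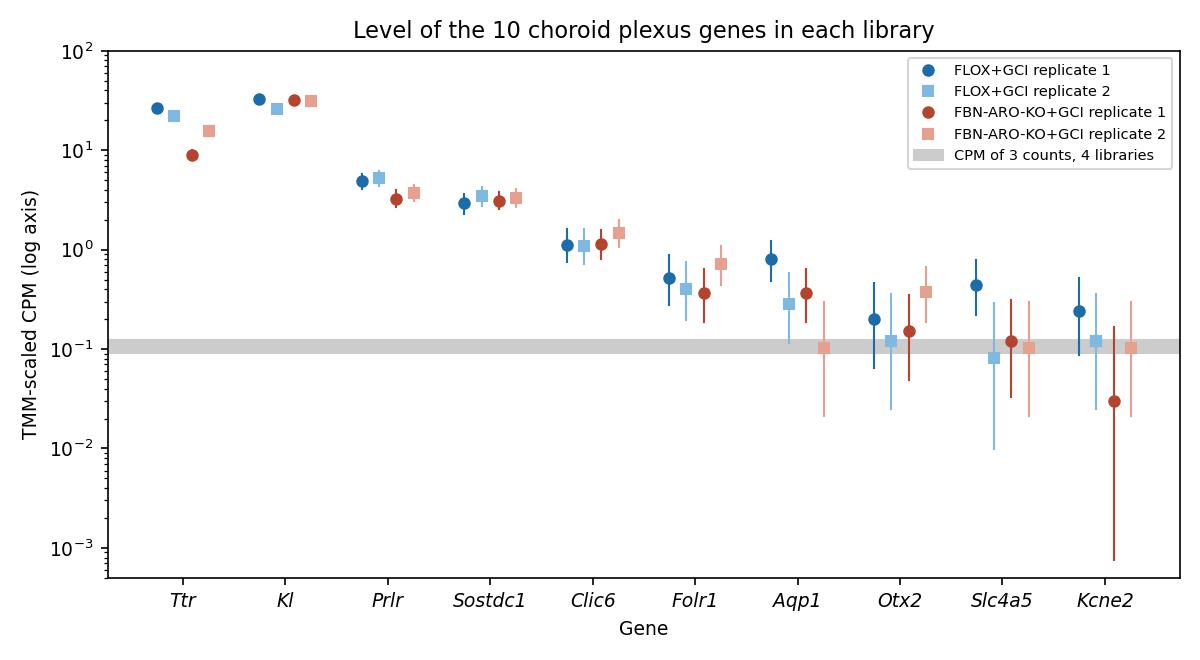
TMM-scaled CPM (log axis) of the 10 genes, with 1 point per library (blue FLOX+GCI, red FBN-ARO-KO+GCI) and bars for the exact 95% Poisson interval of each count. Ttr and Kl lie between 8.93 and 32.96 CPM, while Kcne2 (1 to 6 counts) and Slc4a5 (2 to 4 counts in 3 libraries, 11 in FLOX+GCI replicate 1) are the lowest, around the gray band that marks 3 counts.

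Levels of different genes were compared per kilobase of the longest coding transcript. On this scale the mean over the 4 libraries was 15.0 CPM per kb for Ttr, 5.99 for Kl and 1.83 for Sostdc1. The libraries of neighbors in this order did not overlap from Ttr to Kl, from Kl to Sostdc1 or from Sostdc1 to Prlr. Prlr (0.431 CPM per kb), Folr1 (0.362) and Clic6 (0.321) overlapped in their ranges over libraries. Aqp1 (0.147), Otx2 (0.0928), Kcne2 (0.0730) and Slc4a5 (0.0363) followed, each overlapping its neighbor, Clic6 and Aqp1 included. Among the 14032 tested genes with a transcript length, Ttr stood above 65.9% and Kl above 42.1%. Sostdc1 stood above 21.5%, Prlr above 7.38%, Folr1 above 6.24% and Clic6 above 5.46%.

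Promoter sequences were available for 6 of the genes (Kl, Kcne2, Aqp1, Otx2, Slc4a5 and Prlr) in the RefSeq table of GRCm38.p6, as windows from 250 bases before to 50 bases after each transcript start. The windows are shown for Kl, the most abundant of these 6, for Kcne2, which had at most 6 counts in a library (the first of its 2 windows), and for the 1 window of Otx2 that holds the Otx2 motif TAATCC. Capitals mark this motif, which stands here on the opposite strand as GGATTA.
Kl, chr5:150952357-150952656, plus strand: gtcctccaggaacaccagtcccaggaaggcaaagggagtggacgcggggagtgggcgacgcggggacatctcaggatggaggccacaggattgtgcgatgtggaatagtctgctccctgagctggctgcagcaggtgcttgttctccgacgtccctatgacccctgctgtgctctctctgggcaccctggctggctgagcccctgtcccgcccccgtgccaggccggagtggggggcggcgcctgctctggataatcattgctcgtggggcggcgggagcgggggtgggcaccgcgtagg
Kcne2, chr16:92292139-92292438, plus strand: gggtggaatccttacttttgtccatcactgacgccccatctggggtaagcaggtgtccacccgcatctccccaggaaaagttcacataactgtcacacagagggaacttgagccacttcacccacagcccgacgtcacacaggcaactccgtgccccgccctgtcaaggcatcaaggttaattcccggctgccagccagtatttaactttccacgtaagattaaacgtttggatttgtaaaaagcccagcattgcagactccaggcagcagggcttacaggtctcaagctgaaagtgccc
Otx2, chr14:48665060-48665359, minus strand: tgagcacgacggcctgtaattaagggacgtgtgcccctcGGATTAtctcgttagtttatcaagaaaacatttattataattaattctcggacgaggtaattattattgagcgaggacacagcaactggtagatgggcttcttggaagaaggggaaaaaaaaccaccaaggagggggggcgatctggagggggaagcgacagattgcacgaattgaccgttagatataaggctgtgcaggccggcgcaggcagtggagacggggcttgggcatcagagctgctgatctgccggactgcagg
The Kl window has a GC content of 67.3% and 19 CpG, the first Kcne2 window 53% and 9 CpG, and this Otx2 window 51% and 16 CpG, against medians of 52.7% and 7 CpG over 32851 promoters of the same length. The second Kcne2 window, which is not shown, has 48.7% and 1 CpG, and the 12 windows of the 6 genes range from 35.3% to 67.3%. TAATCC, searched on both strands, occurred in 1 of the 12 windows of these genes and in 7.06% of all promoters of this length. A match is a description of the letters in this window only.

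Of the genes that carry or take up nutrients, Ttr encodes transthyretin, the carrier of thyroxine and retinol-binding protein and the most abundant secreted product of choroid plexus epithelium. Its counts were 664 and 540 in FLOX+GCI against 296 and 458 in FBN-ARO-KO+GCI, or 26.5 and 21.9 CPM against 8.93 and 15.6 CPM. Both FBN-ARO-KO+GCI libraries were thus below both FLOX+GCI libraries. The mean was 24.2 ± 3.25 CPM (SD, n = 2) in FLOX+GCI and 12.3 ± 4.74 CPM (SD, n = 2) with the deletion, 1.97-fold higher in FLOX+GCI. This gave a log2 fold change of -0.98 (standard error 0.25, unadjusted p = 0.00469, adjusted p = 0.238 with edgeR's quasi-likelihood test), so the difference did not pass the threshold of 0.05 over all genes. The FBN-ARO-KO+GCI libraries differed from each other by 1.75-fold, with counting intervals (95%) of 7.94 to 10.01 CPM and 14.2 to 17.1 CPM that did not overlap. A fold of at least this size separated these 2 libraries for 3.77% of all tested genes. With 1 library left out, the log2 fold change of Ttr was between -1.44 and -0.63, the smallest change without FBN-ARO-KO+GCI replicate 1.

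Folr1, on chromosome 7 of mm9 from 109006845 to 109019302 on the minus strand, encodes folate receptor alpha, through which the epithelium passes folate into the fluid. It had 13 and 10 counts in FLOX+GCI against 12 and 21 counts in FBN-ARO-KO+GCI. FBN-ARO-KO+GCI held both the lowest and the highest of these libraries, at 0.362 and 0.717 CPM. The log2 fold change was 0.20 with a standard error of 0.51.

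Kl, on chromosome 5 from 151755182 to 151796384, encodes klotho, the co-receptor of the hormone FGF23. It had 826 and 646 counts in FLOX+GCI against 1055 and 918 in FBN-ARO-KO+GCI, or 32.96 and 26.2 CPM against 31.8 and 31.3 CPM. The FBN-ARO-KO+GCI libraries lay between the FLOX+GCI libraries. The log2 ratio of the genotypes was 0.09 (standard error 0.12, adjusted p = 0.720 with edgeR's quasi-likelihood test). Kl varied less over the libraries than Ttr: its highest library exceeded its lowest by 1.26-fold, against 2.97-fold for Ttr.

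Prlr, on chromosome 15 from 10106993 to 10303504, encodes the prolactin receptor, which signals through JAK2 and STAT5. It had 122 and 129 counts in FLOX+GCI against 108 and 109 in FBN-ARO-KO+GCI. There was no overlap between the genotypes, with 4.87 and 5.23 CPM against 3.26 and 3.72 CPM. The mean was 5.05 ± 0.258 CPM (SD, n = 2) in FLOX+GCI and 3.49 ± 0.327 CPM (SD, n = 2) with the deletion, for a log2 fold change of -0.53 (standard error 0.19, unadjusted p = 0.0265, adjusted p = 0.257 with edgeR's quasi-likelihood test), short of the threshold. The annotated locus overlaps Agxt2 on the same strand.

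Of the genes of fluid secretion, Clic6 passed the filter and the other 3 did not. Clic6, on chromosome 16 from 92485981 to 92541488, belongs to the chloride intracellular channel family and had 28 and 27 counts in FLOX+GCI against 38 and 43 in FBN-ARO-KO+GCI. This was 1.12 and 1.09 CPM against 1.15 and 1.47 CPM, a separation that was within counting error (log2 fold change 0.24, standard error 0.32). The locus of Clic6 overlaps 2410124H12Rik, also on the same strand. Aqp1, on chromosome 6 from 55286426 to 55298549, encodes the water channel of the apical membrane and had 20 and 7 counts in FLOX+GCI against 12 and 3 in FBN-ARO-KO+GCI. Slc4a5, on chromosome 6 from 83169822 to 83254939, encodes a sodium bicarbonate cotransporter and had 11 and 2 counts in FLOX+GCI against 4 and 3 in FBN-ARO-KO+GCI. For both, FLOX+GCI replicate 1 was the highest library. Kcne2, on chromosome 16 from 92292634 to 92298374, encodes a small subunit of the KCNQ1 potassium channel. It had 6 and 3 counts in FLOX+GCI against 1 and 3 in FBN-ARO-KO+GCI. Aqp1, Slc4a5 and Kcne2 did not pass the filter, and no difference between genotypes was detectable for them at this depth.

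Of the regulators, Otx2, on chromosome 14 from 49277354 to 49287319, encodes the homeodomain factor that maintains choroid plexus identity. It had 5 and 3 counts in FLOX+GCI against 5 and 11 in FBN-ARO-KO+GCI, and it was the fourth gene below the filter. Its highest library was FBN-ARO-KO+GCI replicate 2, with a counting interval (95%) of 0.188 to 0.672 CPM. Sostdc1, on chromosome 12 from 37040756 to 37045039, encodes a secreted antagonist of BMP and Wnt signaling. It had 73 and 85 counts in FLOX+GCI against 103 and 97 in FBN-ARO-KO+GCI, which overlapped at 2.91 and 3.45 CPM against 3.11 and 3.31 CPM. For Sostdc1 the genotypes differed by 0.01 in log2 (standard error 0.22, adjusted p = 0.981 with edgeR's quasi-likelihood test).

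Between genotypes, 6 of the 10 genes could be tested, among 14527 genes in all, and 0 of them passed in edgeR's quasi-likelihood test at an adjusted p of 0.05 (background 0.0138% of all genes tested). DESeq2 gave none of the 6 an adjusted p, because its independent filtering removed them. Its background was 4.92% of the 5796 genes that had one. With the replicate number as a block, 1 of the 6, Ttr, was called lower, where the background was 1.27% in either direction and 0.977% for lower genes, and nothing in the labels says that the numbers pair the libraries. At an unadjusted p under 0.05 there were 2 of the 6 with edgeR, Ttr and Prlr, both lower in FBN-ARO-KO+GCI, where the background was 16.5% in either direction and 7.82% for lower genes. In DESeq2 the unadjusted p was 3.28e-05 for Ttr and 0.110 for Prlr. The share of all genes under 0.05 before adjustment in DESeq2 was not computed. The libraries of the 2 genotypes did not overlap for 3 of the 6, Ttr, Prlr and Clic6, against 51.8% of all genes tested, so this share is near the background. The median log2 fold change of the 6 genes was 0.05, against -0.01 over all genes tested. This median describes only the genes that passed the filter, and it was -0.26 over all 10 genes when every gene that had a count was fitted. Across all tested genes with a known transcript, the log2 fold change followed GC content (Spearman's rho -0.55, a description over genes that share the same 4 libraries). With an offset for the dependence of each library on transcript GC and length, the log2 fold change was -0.98 for Ttr and -0.78 for Prlr, both with an adjusted p of 0.334 in edgeR, and that of Folr1 was 0.36 in place of 0.20.

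**Figure D2:**
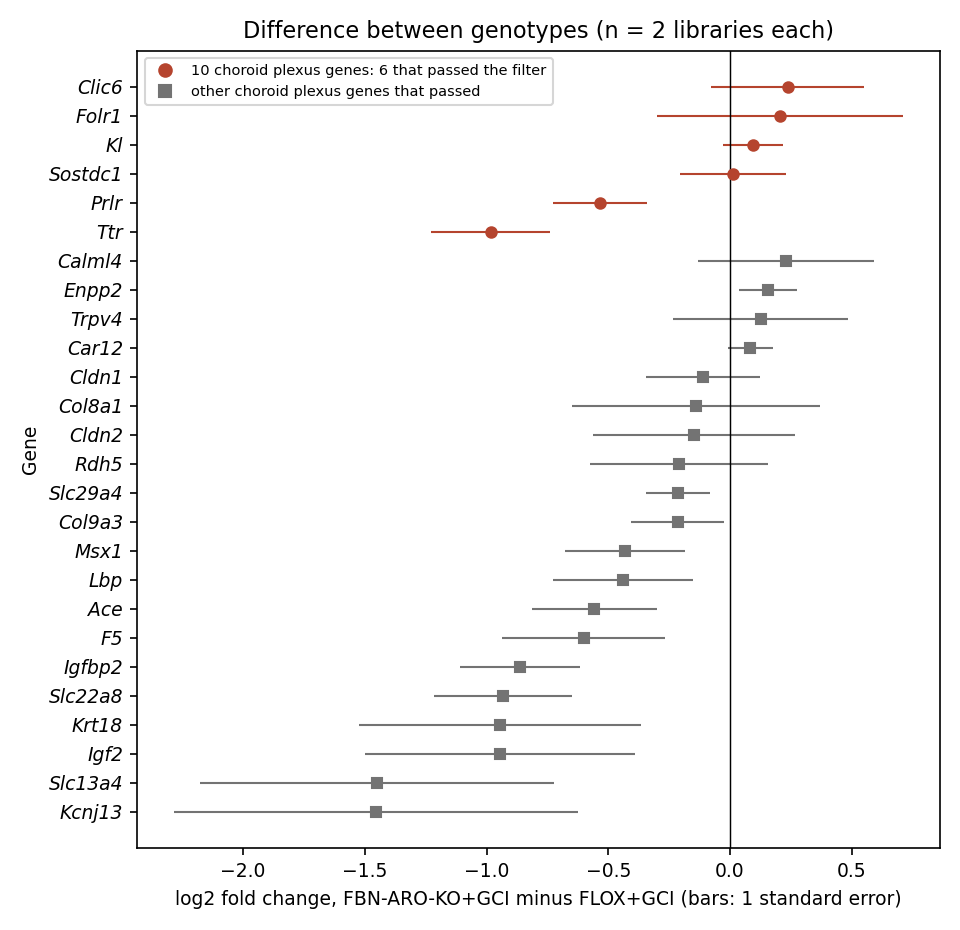
log2 fold change of FBN-ARO-KO+GCI against FLOX+GCI (horizontal axis, points with 1 standard error, n = 2 libraries a group) for the 6 choroid plexus genes (red) and the 20 other choroid plexus genes (gray) that passed the filter. Ttr (-0.98) and Prlr (-0.53) lie left of 0, the other 4 red points lie between 0.01 and 0.24, and no gene passed an adjusted p of 0.05.

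The genes did not keep 1 ratio to each other across libraries. For each read of Folr1 there were 51.1 and 54.0 reads of Ttr in FLOX+GCI against 24.7 and 21.8 in FBN-ARO-KO+GCI. For each read of Clic6 there were 23.7 and 20.0 reads of Ttr in FLOX+GCI against 7.79 and 10.7 in FBN-ARO-KO+GCI. The ratio of Ttr to Kl was 0.804 and 0.836 in FLOX+GCI against 0.281 and 0.499 in FBN-ARO-KO+GCI. Across libraries, Ttr thus moved apart from Folr1, Clic6 and Kl, and the ratios were lower in both FBN-ARO-KO+GCI libraries for these 3 genes. The ratio to Prlr, 5.44 and 4.19 in FLOX+GCI against 2.74 and 4.202 in FBN-ARO-KO+GCI, overlapped between the groups. These ratios share the Ttr counts and are given as a description.

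**Figure D3:**
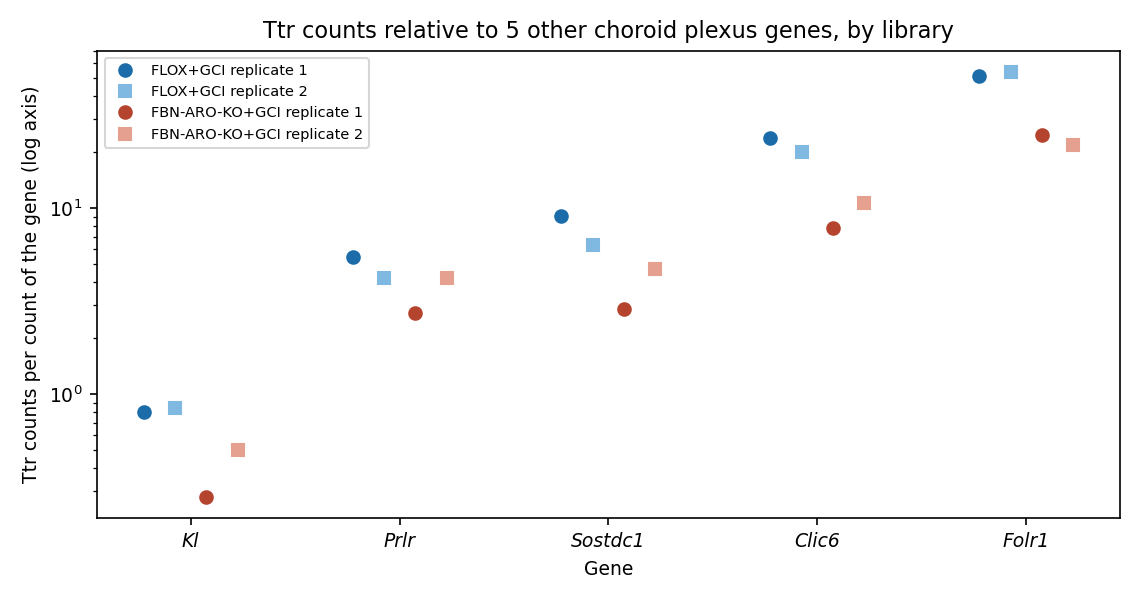
Ttr counts per count of Kl, Prlr, Sostdc1, Clic6 and Folr1 (log axis), with 1 point per library, for the genes with at least 10 counts in every library. Both FBN-ARO-KO+GCI points lie below both FLOX+GCI points for each gene but Prlr. The ratios share the Ttr counts, which by themselves do not overlap between the groups.

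A further 28 genes known from choroid plexus were examined as a list of their own. Of these, 20 passed the filter, 0 passed in edgeR's quasi-likelihood test after adjustment, and 2, Igfbp2 and Slc22a8, had an unadjusted p under 0.05, both lower in FBN-ARO-KO+GCI. These 2 were 10% of the 20, against 16.5% of all genes tested in either direction and 7.82% for lower genes. DESeq2 called 0 of the 3 genes it gave an adjusted p. With the replicate number as a block, 5 were called, all lower (1.27% of all genes under the same block), and with the block and the offset for GC and length together 0 were. The median log2 fold change was -0.32, with 16 of the 20 lower and 4 higher, against -0.01 over all genes. Of all genes tested, 7458 were lower and 7069 higher. The libraries of the genotypes did not overlap for 25% of the 20, against 51.8% of all genes tested. The 8 genes below the filter, among them Tmem72 and Wfdc2, reached at most 0.487 CPM in any library, and Mfrp had 0 counts in each. The tight junction gene Cldn2, which marks leaky epithelia, had 31 and 16 counts in FLOX+GCI against 26 and 27 in FBN-ARO-KO+GCI. The 6 most abundant genes of the list were Enpp2, Igf2, Car12, Slc29a4, Igfbp2 and Ace. Enpp2, for autotaxin, which oligodendrocytes also make, was between 149.1 and 194.2 CPM. Car12, a carbonic anhydrase, was between 43.2 and 49.7 CPM, and Slc29a4, a monoamine transporter, between 31.4 and 43.0 CPM.

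Igf2, for insulin-like growth factor 2, which choroid plexus and leptomeninges both secrete, had 177.8 and 73.7 CPM in FLOX+GCI against 100.5 and 29.9 CPM in FBN-ARO-KO+GCI. FLOX+GCI replicate 1 was the highest and FBN-ARO-KO+GCI replicate 2 the lowest. Igfbp2, for a binding protein of insulin-like growth factors, had 49.4 and 41.7 CPM against 32.2 and 17.8 CPM, a log2 fold change of -0.86 (standard error 0.24, unadjusted p = 0.00902, adjusted p = 0.238 with edgeR's quasi-likelihood test) that was -0.56 with the offset for GC and length. Ace, for the angiotensin-converting enzyme, had 22.1 and 14.6 CPM against 15.2 and 9.66 CPM. The following 3 genes were singled out after their values were seen. Slc22a8, for an organic anion transporter, had 23.9 and 14.5 CPM in FLOX+GCI against 12.4 and 7.75 CPM in FBN-ARO-KO+GCI (-0.93 in log2, standard error 0.28, adjusted p = 0.245 with edgeR's quasi-likelihood test). Slc13a4, for a sulfate transporter, had 27.0 and 10.3 CPM against 11.7 and 1.77 CPM. Kcnj13, for an apical potassium channel, had 3.31 and 0.893 CPM against 1.33 and 0.171 CPM. The libraries of the genotypes overlapped for Igf2, Ace, Slc13a4 and Kcnj13, and not for Igfbp2 and Slc22a8.

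The same order of libraries was present in 12 markers of choroid plexus stroma and leptomeninges, which lie over the hippocampus and enter the plexus with its vessels. Their summed level was 335.5 and 180.2 CPM in FLOX+GCI against 210.6 and 125.6 CPM in FBN-ARO-KO+GCI. Of these 12 markers, 10 were highest in FLOX+GCI replicate 1 and lowest in FBN-ARO-KO+GCI replicate 2, as were 9 of the 20 tested genes of the further choroid plexus list and 12.2% of all genes tested. Of the first list, 0 of the 6 tested genes had both, but Aqp1, below the filter, did. This description by order was chosen after the values were seen. Fmod, for the matrix protein fibromodulin, had 51.8 and 16.0 CPM in FLOX+GCI against 28.7 and 1.61 CPM in FBN-ARO-KO+GCI. Slc6a13, for a GABA and taurine transporter of the leptomeninges, had 23.1 and 9.78 CPM against 12.9 and 2.36 CPM, and the collagen gene Col1a2 36.7 and 13.8 CPM against 17.9 and 4.44 CPM. The highest library exceeded the lowest by between 1.35-fold (Dcn) and 32.3-fold (Fmod) over the 12 markers, and by between 1.18-fold (Sostdc1) and 2.97-fold (Ttr) over the 6 tested choroid plexus genes. The 4 genes below the filter, at 1 to 20 counts a library, are not in that range. The median log2 fold change of the 12 markers was -1.07, with 12 lower, against 7458 lower of the 14527 genes tested. Of the 12, 0 were called and 1 (Bgn), or 8.33%, had an unadjusted p under 0.05 in edgeR, against 16.5% of all genes tested. The genotypes did not overlap for 16.7% of the 12, against 51.8% of all genes tested. DESeq2 called 0, with an adjusted p for 1 of the 12, and the replicate block gave 7, against 1.27% of all genes. The part of these markers in the values of the choroid plexus genes was not tested.

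**Figure D4:**
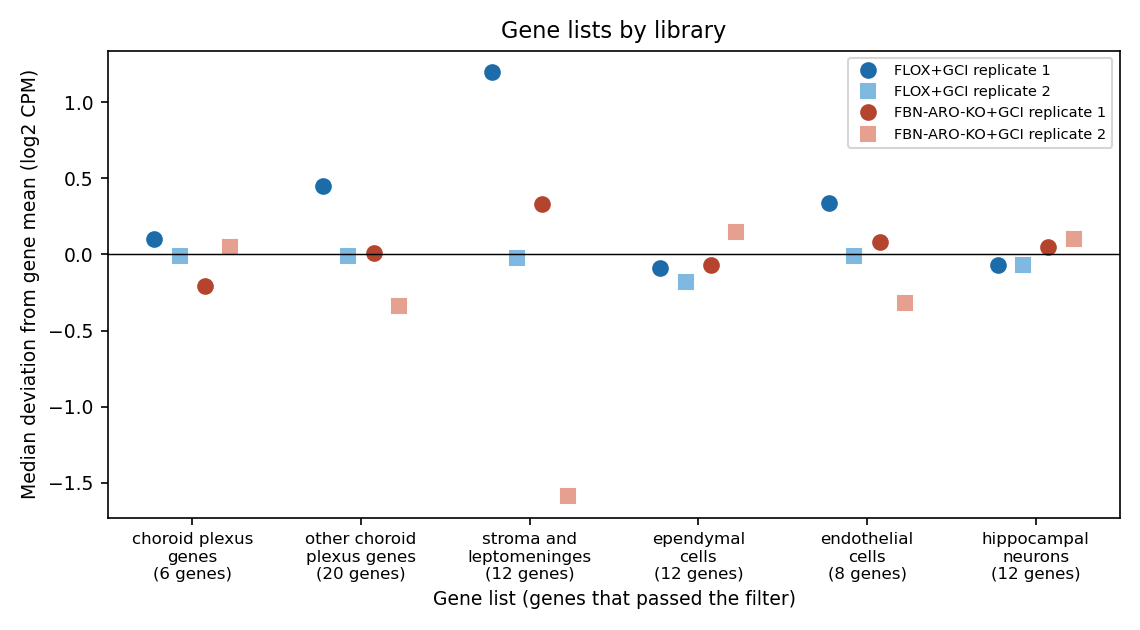
Median over each list of a gene's deviation from its own mean over the libraries (vertical axis, log2 CPM), with 1 point per library, for the genes that passed the filter. The median of the stroma and leptomeninges list runs from 1.20 in FLOX+GCI replicate 1 to -1.59 in FBN-ARO-KO+GCI replicate 2. The median of the 6 choroid plexus genes stays between -0.21 and 0.10. Single genes spread wider, with Ttr from 0.65 in FLOX+GCI replicate 1 to -0.91 in FBN-ARO-KO+GCI replicate 1.

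Other neighbors of the epithelium were examined in the same way. The 12 markers of ependymal cells, the ciliated lining of the ventricles, all passed the filter and summed to 33.3 and 29.8 CPM in FLOX+GCI against 32.5 and 36.0 CPM in FBN-ARO-KO+GCI. Foxj1, the master factor of motile cilia, was at 7.30 and 7.46 CPM against 8.45 and 8.84 CPM. The ependymal median log2 fold change was 0.28, and 0 of the 12 were called, with 1 (Ccdc153) at an unadjusted p under 0.05 in edgeR and 0 in DESeq2. In edgeR this was 8.33% of the 12, against 16.5% of all genes tested. The 8 endothelial markers summed to 268.5 and 201.6 CPM in FLOX+GCI against 225.8 and 166.2 CPM in FBN-ARO-KO+GCI, in the order of the stromal markers. Of these 8, 0 were called and 3 had an unadjusted p under 0.05 in edgeR, all lower. This was 37.5% of the 8, against 16.5% of all genes tested in either direction and 7.82% for lower genes. DESeq2 called 0 of the 2 to which it gave an adjusted p, and the replicate block called 1, Cdh5, lower. Plvap, which marks fenestrated vessels such as those of the choroid plexus, had 8.18 and 7.83 CPM against 5.82 and 6.21 CPM (log2 fold change -0.41, and -0.14 with the offset for GC and length). Of the blood markers, the hemoglobin genes Hbb-b1, Hbb-b2, Hba-a1 and Hba-a2 had 0 counts in each library, and as near-identical copies their reads can be lost when reads with several alignments are not counted. Alas2, the heme synthesis enzyme of erythroid cells, had 104 and 76 counts in FLOX+GCI against 61 and 67 in FBN-ARO-KO+GCI. Alas2 and Ttr both had their lowest CPM in FBN-ARO-KO+GCI replicate 1, as did Prlr, Folr1 and Kcne2. A link between Alas2 and Ttr was not tested.

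The partners through which the 10 genes act were followed in a list of 26 genes, of which 22 passed the filter. In edgeR's quasi-likelihood test 0 of the 22 were called, 2 were higher and 2 lower at an unadjusted p under 0.05, and the median log2 fold change was -0.08. The genes at an unadjusted p under 0.05 were 18.2% of the 22, against 16.5% of all genes tested. Dio2, which activates thyroxine in astrocytes, had 70.2 and 68.5 CPM in FLOX+GCI against 97.6 and 109.5 CPM in FBN-ARO-KO+GCI. On the log2 scale this was 0.58 higher (standard error 0.08, unadjusted p = 0.000201, adjusted p = 0.238 with edgeR's quasi-likelihood test). DESeq2 called Dio2 and no other gene of this list (adjusted p = 9.31e-05), and the replicate block called Dio2 and Bmp7. Jak2 was the other gene with a higher level (log2 fold change 0.24, and 0.12 with the offset for GC and length), and the reduced folate carrier Slc19a1 (-0.42) and Stat5a (-0.72) the genes with a lower level, all 3 at unadjusted p-values under 0.05. Fgf23, the ligand of klotho, had 2 and 0 counts in FLOX+GCI against 0 and 4 in FBN-ARO-KO+GCI. Prl, for prolactin, had 4 and 1 counts against 14 and 0, and Klb, the paralog of Kl, had 4 and 5 counts against 4 and 6.

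All 15 genes of a list of ion and water transport, which epithelium shares with neurons and glia, passed the filter. Their median log2 fold change was -0.08, 0 were called, and 2 had an unadjusted p under 0.05 in edgeR, and DESeq2 called 0. The 2 were 13.3% of the list, against 16.5% of all genes tested. Those 2 genes were Slc12a2, the sodium, potassium and chloride cotransporter NKCC1 (log2 fold change 0.38), and Fxyd1, a regulator of the sodium pump (-0.31). With the offset for GC and length they were at 0.23 and -0.05. Kcnq1, the channel partner of Kcne2, had 15 and 19 counts in FLOX+GCI against 10 and 18 in FBN-ARO-KO+GCI. Aqp4, the water channel of astrocytes, was between 122.7 and 184.5 CPM, while Aqp1 stayed between 0.102 and 0.798 CPM.

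The 10 genes outside all lists whose profile over the 4 libraries was nearest to the median profile of the 6 tested choroid plexus genes were Cyp4f16, Dtwd2, Btbd11, Samd4, Actg1, Sec11c, Rpl22l1, Pcdhb20, Ccdc90a and Gstm4. The measure was the root mean square difference in log2 CPM, which ran from 0.0180 for Cyp4f16 to 0.0312 for Gstm4 over 13307 candidate genes. Actg1 has near-identical pseudogenes, so its counts are uncertain. The median profile was nearly flat, at 0.10 and -0.01 in FLOX+GCI against -0.21 and 0.05 in FBN-ARO-KO+GCI. The 6 genes differed from it and from each other, with Ttr at 0.65 and 0.37 in FLOX+GCI against -0.91 and -0.11 in FBN-ARO-KO+GCI, and Folr1 at 0.08, -0.22, -0.36 and 0.50 in the same order.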

How the data were processed

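Single-end reads of 50 nt had been mapped by the authors on mm9 (TopHat2 2.0.8b), who deposited raw read counts per gene symbol from HTSeq, without normalization. The HTSeq version, strand setting and annotation release are not given in the sources used here, so a gene can share reads with one that overlaps it. The 5 rows of reads not assigned to a gene (43.4% to 45.5% of the listed reads) were left out.

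Genotypes were compared over all genes in edgeR 4.0.16 (R 4.3.3) by its quasi-likelihood test after TMM scaling. Genes were kept by filterByExpr at a minimum count of 10, and an adjusted p (Benjamini-Hochberg) under 0.05 was called. Standard errors were approximated from the F statistic. With 2 libraries a group, an exact permutation test cannot give a two-sided p under 0.333. Log2 CPM used a prior count of 2. Counting intervals are exact 95% Poisson intervals. Coordinates, transcript lengths and GC content came from GENCODE M1 of NCBIM37 (mm9), where 21515 symbols had 1 locus. The fits were tested on simulated data. Replicates differed by more than sampling noise (chi-square per degree of freedom 10.8 and 12.8).

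The 10 genes, the marker lists and the tests were chosen with earlier results of these data known. Named genes were the 10, list genes past the threshold (none), the 6 most abundant of the further choroid plexus list, and the 10 with the nearest profile; other named genes were chosen after their values were seen. Alternatives were DESeq2 1.42.0, its size factors in edgeR, library totals, 2 other filters on low counts, the replicate number as a block, an offset for GC content and length (natural splines, 5 degrees of freedom), both together, and each library left out.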

Additional observations from a re-analysis of the deposited data

How the results depend on the processing

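Ttr was lower in FBN-ARO-KO+GCI in every alternative run, with log2 fold changes from -1.44 to -0.63 with 1 library left out and from -1.02 to -0.98 otherwise, and Prlr was lower in all of them too (-0.78 to -0.44). Without a block and with every library kept, no choroid plexus gene passed 0.05 in edgeR with any scaling or filter. DESeq2 gave the 6 genes no adjusted p, so it could not call them. The labels give no shared litter, batch or day for same-numbered libraries, whose deviations correlated at 0.129 over genes. With the replicate block, 1 of the 6 genes, Ttr, passed (adjusted p = 0.0136 with edgeR), as did 5 of the further choroid plexus list, against 184 of all genes (2 without it). With the block and the offset for GC content and length together, 0 passed in both lists and 1 of all genes, and Ttr had an adjusted p of 0.258 with edgeR. DESeq2 called 285 of the 5796 genes to which it gave an adjusted p. With 1 library left out, the lone library of a group is assumed to vary like the other group. Only log2 fold changes are therefore given for those fits. The median log2 fold change of the choroid plexus genes was -0.26 over all 10 with every gene of at least 1 count, and -0.27 with a mean of at least 50 counts, because the genes covered differ. It was between -0.19 and 0.0745 with 1 library left out, and the further list was between -0.67 and -0.18. Sostdc1 changed sign around 0, at -0.0237 with library totals only, -0.0096 with the offset and -0.0053 with the offset and block, and between -0.10 and 0.14 with 1 library left out. With 1 library left out, Kl ranged from -0.0648 to 0.27 and Folr1 from -0.35 to 0.62, and the cause was not tested. At under 22 counts a library, depth limits Folr1, Kcne2, Aqp1, Otx2 and Slc4a5.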
